A study of Mus musculus with 2 samples.

Results

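The MHC class I processing genes were followed in 2 droplet single-cell RNA sequencing (scRNA-seq) libraries of mouse spleen cells. The 10 genes H2-K1, H2-D1, B2m, Tap1, Tap2, Tapbp, Psmb8, Psmb9, Psmb10 and Nlrc5 were taken by symbol, each matched 1 of the 26124 rows of the deposited matrices, and all 10 had unique molecular identifiers (UMIs, a count of captured mRNA molecules) in both libraries. Each library came from the spleen of 1 untreated mouse aged 12 to 16 weeks, whose cells had been pulled down with magnetic beads carrying an antibody to F4/80, a macrophage surface protein. Both mice were homozygous for Hbatm1Paz, which removes the mouse α-globin genes, and both carried Tg(HBA-HBBs)41Paz, a transgene with human α-globin and sickle β-globin. The mouse labelled wild-type was heterozygous for Hbbtm1Tow, the deletion of mouse β-globin, and hemizygous for the transgene, and it did not sickle. The mouse labelled SCD (sickle cell disease) was homozygous for both and sickled, so neither group was free of the transgene. The authors describe Berkeley SCD mice, the strain used, as having a mixed genetic background. Whether the 2 mice carried the same MHC alleles was not examined. With 1 library per group no test was possible, and every interval given below is a 95% interval that covers counting error only.

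MHC class I molecules show peptides made inside a cell to CD8 T cells. The proteasome cuts proteins into peptides, the TAP transporter carries them into the endoplasmic reticulum, tapasin holds the transporter and an empty heavy chain together, and the loaded complex of heavy chain and β2-microglobulin travels to the cell surface. Interferons raise the genes of this pathway through factors such as IRF1 and the coactivator NLRC5, which has no DNA-binding part of its own and acts through factors already bound to class I promoters. Red cells carry far less class I on their surface than nucleated blood cells do.

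The genes lie on 3 chromosomes (GRCm38, GENCODE M21). Of the 10, 7 are on chromosome 17 in or beside the MHC region, from Tapbp at chr17:33915899-33929292 to H2-D1 at chr17:35262730-35267499. Within it, Psmb9, Tap1, Psmb8 and Tap2 sit side by side in a segment of 34335 bases, chr17:34181987-34216321. H2-K1 is at chr17:33996017-34000347, B2m at chr2:122147686-122153083, Psmb10 at chr8:105935735-105938444 and Nlrc5 at chr8:94434356-94527272.

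The promoters of the heavy chains and of B2m are shown because all 3 hold the TGACG and ATTGG letters of the boxes through which NLRC5 is known to act on class I genes, and the H2-K1 and H2-D1 promoters also those of an interferon response element and an NF-κB site. The RefSeq promoter table used here matched 8 of the 10 genes, not Tap2 and Nlrc5 (build GRCm38.p6, 250 bases before the start of transcription, written 5′ to 3′ along the gene). Capitals mark 4 motifs on either strand, namely GGGGATTCC of the NF-κB site, GAANNGAAA of the interferon-stimulated response element, TGACG as found in the X2 box, and ATTGG, the reverse of a CCAAT box as found in the Y box. The H2-K1 promoter is chr17:34000348-34000597 on the minus strand, the H2-D1 promoter chr17:35262844-35263093 on the plus strand, and the B2m promoter chr2:122147437-122147686 on the plus strand. Psmb9 and Tap1 start 226 bases apart on opposite strands, and the fourth line is the stretch between their starts, chr17:34187331-34187555, written along Tap1.
H2-K1: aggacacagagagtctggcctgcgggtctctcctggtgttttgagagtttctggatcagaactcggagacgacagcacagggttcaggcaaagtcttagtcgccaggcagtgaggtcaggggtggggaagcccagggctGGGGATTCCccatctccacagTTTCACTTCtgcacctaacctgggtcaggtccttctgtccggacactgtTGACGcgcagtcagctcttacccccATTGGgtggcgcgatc
H2-D1: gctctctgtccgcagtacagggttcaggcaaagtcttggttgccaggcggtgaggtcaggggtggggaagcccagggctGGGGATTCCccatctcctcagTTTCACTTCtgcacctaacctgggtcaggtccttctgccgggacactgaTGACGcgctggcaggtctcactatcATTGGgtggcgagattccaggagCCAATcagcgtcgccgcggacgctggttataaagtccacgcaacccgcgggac
B2m: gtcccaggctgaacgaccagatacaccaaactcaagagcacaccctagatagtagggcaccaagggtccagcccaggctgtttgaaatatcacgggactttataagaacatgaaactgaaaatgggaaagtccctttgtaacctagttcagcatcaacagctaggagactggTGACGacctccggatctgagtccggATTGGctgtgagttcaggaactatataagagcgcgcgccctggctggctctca
Psmb9-Tap1: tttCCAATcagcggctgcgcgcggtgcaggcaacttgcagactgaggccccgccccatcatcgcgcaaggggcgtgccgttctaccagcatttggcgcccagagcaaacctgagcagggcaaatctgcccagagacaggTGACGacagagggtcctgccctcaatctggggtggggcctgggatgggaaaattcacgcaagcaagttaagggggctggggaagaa

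In these sequences H2-K1 and H2-D1 held the same 4 motifs at the same distances. From start to start, 21 bases separated the NF-κB letters from the interferon element, 49 the interferon element from TGACG, and 25 TGACG from ATTGG, and B2m had the last pair at the same 25 bases. That spaced pair, whose distance was picked from the members' own sequences, was in 3 of the 8 member promoters and in 30 of 32851 RefSeq mouse promoters (0.0913%), H2-M3 among them. The NF-κB letters, searched in the form known from class I promoters, were in 2 of 8 member promoters against 0.213% of all promoters. The interferon element was in the same 2 against 6.31%. TTCNNNGAA (the GAS motif), also searched and not marked, was in 1 of 8, Psmb8, against 7.02%. TGACG was found in 5 of 8 (17.8% of all) and ATTGG in 6 of 8 (33.9% of all). A match is a description of letters and not a bound site, and H2-K1 and H2-D1 are near copies of one another, so that their shared letters are not separate observations. The Psmb9 and Tap1 promoters overlap in the stretch between their starts. Their TGACG letters are 1 site counted for both genes, and so are their ATTGG letters.

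The wild-type-labelled library held 24144 barcodes and 145953464 UMIs, and the SCD-labelled library 15442 barcodes and 73986356 UMIs. After filtering, 19418 and 12279 cells remained with a median of 4115.5 and 4571 UMIs, and 107 barcodes occurred in both libraries. Mouse β-globin went against the labels: Hbb-bs reached 164 CPM (UMIs of the gene per 1000000 UMIs of the class) in erythroid-like cells of the wild-type-labelled library, whose mouse should keep 1 copy of the locus, and 63821 CPM in the SCD-labelled library, whose mouse should have none. The libraries are therefore called by their labels, and every direction between them is that of the SCD-labelled library over the wild-type-labelled library. Of 31 clusters, 20 could be named from markers, and 8 classes had at least 100 cells in each library. They were red pulp macrophage (RPM)-like cells (4804 and 1609), erythroblastic island macrophage (EBI)-like cells with macrophage and erythroid markers together (5116 and 813), erythroid-like (2764 and 305), B lymphocyte-like (537 and 1722), Ly6c-high monocyte-like (1096 and 1464), Ly6c-low monocyte-like (469 and 1068), cDC2-like (350 and 586) and mature DC-like cells (429 and 611). A further 3486 and 3979 cells lay in clusters that stayed unnamed. The bead selection chose which cells entered, so no class share is compared.

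Macrophage transcripts were counted in every class. The 3 C1q genes, which macrophages make, stood in B lymphocyte-like cells at 14.8% of their RPM-like level in the wild-type-labelled library and 9.59% in the SCD-labelled library, and in erythroid-like cells at 25.9% and 13.9%. The shares were 43.2% and 26.5% in Ly6c-low monocyte-like, 40.3% and 15.45% in mature DC-like, 24.03% and 12.5% in Ly6c-high monocyte-like, and 23.7% and 10.2% in cDC2-like cells, lower in the SCD-labelled library in each of these classes. All 12 macrophage markers had UMIs in both libraries in erythroid-like cells, summing to 10137 and 4856 CPM, where RPM-like cells had 41526 and 35862 CPM. Free RNA, doublets (11.6% and 9.51% of erythroid-like cells were scored as such) and the cells' own C1q transcripts cannot be told apart as its source, and the C1q share is used below as a guide to macrophage RNA in the classes other than macrophages.

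All 10 genes were lowest in erythroid-like cells among the 8 classes, in both libraries. The highest class was mature DC-like for H2-K1, B2m, Tap1, Tapbp and Nlrc5 in both libraries, joined by Tap2 and Psmb9 in the SCD-labelled library. T lymphocyte-like cells (88 and 107) were too few to be among the 8. In the wild-type-labelled library they were above all 8 for Tap2 (160 CPM, interval 119 to 211), Psmb8 (330, 269 to 400) and Psmb9 (243, 192 to 304). With overlapping intervals they were also above for H2-K1, Tap1 and Tapbp there, and for Tap2 and Psmb9 in the SCD-labelled library. For the other genes they were not. Highest and lowest below refer to the 8 classes. The span from lowest to highest class was narrowest for Tapbp, at 2.03-fold and 2.71-fold in the libraries labelled wild-type and SCD, and widest for Nlrc5, at 13.4-fold and 16.8-fold. For Tapbp in both libraries, Tap1 in the wild-type-labelled library, and Tap2 and Psmb9 in the SCD-labelled library, the highest class overlapped the next. The plot of levels by class shows this order for each gene.

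**Figure D1:**
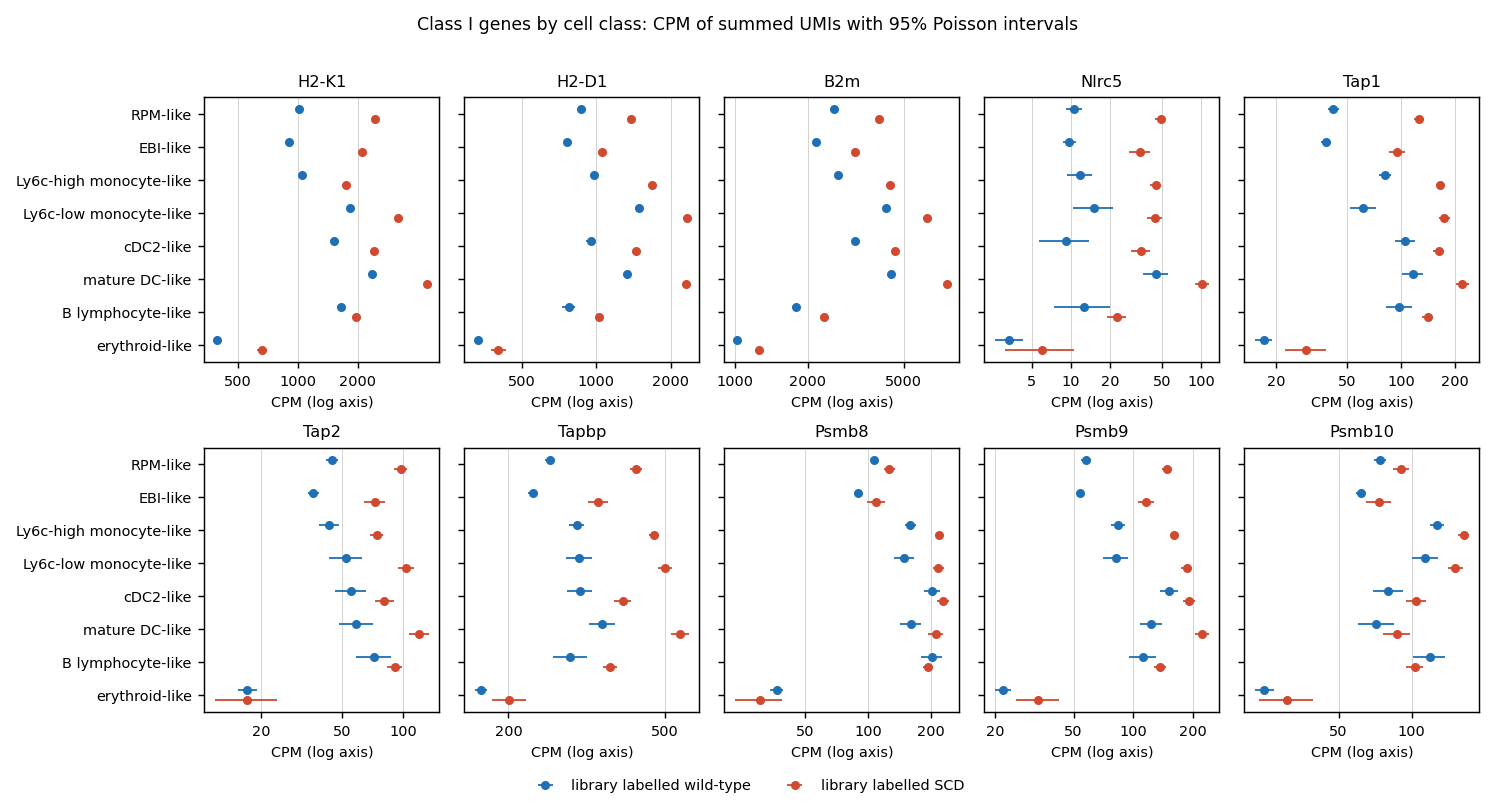
Level of each gene (CPM, log axis) in the 8 cell classes of the wild-type-labelled library (blue) and the SCD-labelled library (red), with bars for the exact Poisson 95% interval. Erythroid-like cells hold the lowest point of every gene in both libraries, for example 391 and 660 CPM for H2-K1.

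H2-K1 and H2-D1 encode the classical heavy chains. In the wild-type-labelled library H2-K1 was 2350 CPM in mature DC-like cells, 1818 in Ly6c-low monocyte-like, 1643 in B lymphocyte-like, 1521 in cDC2-like, 1044 in Ly6c-high monocyte-like, 1012 in RPM-like, 903 in EBI-like and 391 in erythroid-like cells. The Ly6c-high monocyte-like and RPM-like intervals overlapped, and those of all other neighbours in this order did not. In the SCD-labelled library the values were 4465 in mature DC-like, 3183 in Ly6c-low monocyte-like, 2426 in RPM-like, 2417 in cDC2-like, 2102 in EBI-like, 1958 in B lymphocyte-like, 1747 in Ly6c-high monocyte-like and 660 in erythroid-like cells. RPM-like cells thus stood in the sixth place in one library and level with cDC2-like cells in the third place in the other. H2-D1 was highest in Ly6c-low monocyte-like cells of both libraries, at 1489 and 2326 CPM (overlapping mature DC-like cells in the SCD-labelled library), and lowest in erythroid-like cells at 331 and 400 CPM. Reads of H2-K1, H2-D1 and the H2-Q genes are so alike that the counting may have moved some between them, which makes each gene's own level uncertain.

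B2m encodes β2-microglobulin, the light chain that every class I heavy chain needs. Its order was the same in both libraries, with no overlapping neighbours, from mature DC-like cells (4422 and 7581 CPM) through Ly6c-low monocyte-like, cDC2-like, Ly6c-high monocyte-like, RPM-like (2578 and 3937), EBI-like and B lymphocyte-like (1784 and 2335) to erythroid-like cells (1014 and 1255 CPM). B lymphocyte-like cells, in the third place for H2-K1 in the wild-type-labelled library, were next to last for B2m.

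Tap1 and Tap2 form the peptide transporter and Tapbp is tapasin. Tap1 went from 17.1 CPM in erythroid-like cells to 117 in mature DC-like cells in the wild-type-labelled library, and from 29.6 to 220 in the SCD-labelled library. Tap2 stood at 17.1 CPM in erythroid-like cells of both libraries, and its highest values were 71.6 CPM in B lymphocyte-like cells of the wild-type-labelled library and 119 CPM in mature DC-like cells of the SCD-labelled library. For Tap2, 5 and 6 of the 7 pairs of neighbours overlapped, so its order above the erythroid-like cells was poorly resolved. Tapbp ranged from 170 to 346 CPM and from 201 to 545 CPM, with 5 pairs of neighbours overlapping in each library.

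Psmb8, Psmb9 and Psmb10 encode the catalytic subunits that turn the proteasome into the immunoproteasome. Psmb10 was highest in Ly6c-high monocyte-like cells of both libraries, at 127 and 164 CPM. These overlapped B lymphocyte-like cells in the wild-type-labelled library and Ly6c-low monocyte-like cells in the SCD-labelled library. For Psmb10, 5 pairs of neighbours overlapped in each library. Mature DC-like cells, which led for most of the other genes, had 71.5 and 86.9 CPM of it. Psmb8 was highest in B lymphocyte-like cells (203 CPM) in the wild-type-labelled library and in cDC2-like cells (229 CPM) in the SCD-labelled library, each overlapping the class below it. Nlrc5, the coactivator, was 3.35 and 6.02 CPM in erythroid-like cells, on 68 and 12 UMIs, and 44.8 and 101 CPM in mature DC-like cells.

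Between the libraries, the class I genes were higher in the SCD-labelled library almost throughout. Of the 80 pairs of a gene and a class, 76 had a ratio above 1, 73 had an interval of the log2 ratio wholly above 0, 18 were at least 2-fold higher, and none was 2-fold lower or had an interval below 0. Over all 67788 pairs of a gene with at least 100 UMIs and a class, 52.9% had a ratio above 1, 24.5% an interval above 0, 21.5% an interval below 0, and 3.18% were at least 2-fold higher. RPM-like and EBI-like cells each had 5 genes at least 2-fold higher, and B lymphocyte-like and erythroid-like cells none. With the macrophage RNA share subtracted in the 6 classes other than macrophages, an alternative chosen after seeing the data, 56 of 59 pairs with a ratio were higher, 7 of them at least 2-fold. As measured, 3 genes were 2-fold higher in Ly6c-low monocyte-like, 2 each in Ly6c-high monocyte-like and mature DC-like, and 1 in cDC2-like cells. The share over all genes was not computed after the subtraction. The differences described here are between 1 mouse and 1 mouse, and the spread between animals was not measured.

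In RPM-like cells, H2-K1 was 1012 CPM in the wild-type-labelled library and 2426 CPM in the SCD-labelled library (log2 ratio 1.26, interval 1.23 to 1.29). H2-D1 was 864 and 1383 CPM (0.68) and B2m 2578 and 3937 CPM (0.61), so the gap was wider for H2-K1 than for its near copy and its partner chain. Tap1 was 41.9 and 126 CPM (1.59), Tap2 44.4 and 96.9 CPM (1.12), and Tapbp 255 and 422 CPM (0.73). Of the immunoproteasome subunits, Psmb9, which shares its promoter stretch with Tap1, was 57.8 and 148 CPM (1.36), while Psmb8 was 107 and 127 CPM (0.24) and Psmb10 74.2 and 90.5 CPM (0.29). Nlrc5 had the widest gap, 10.54 and 48.78 CPM (2.21, on 183 and 363 UMIs). All 10 intervals were above 0. At least 2-fold higher were 5 of 10 (50%), against 9.01% of the 10017 genes that reached 100 UMIs there, and 13.3% of those genes were 2-fold apart in either direction. The median log2 ratio was 0.93 for the class I genes and 0.20 for all genes.

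The RPM-like class was made of different clusters in the 2 libraries, 3672 cells of cluster 1 and 1084 of cluster 10 in the wild-type-labelled library and 1499 of cluster 4 in the SCD-labelled library, so that a cluster and a library cannot be told apart for most of these cells. Median depth also differed, at 2149 and 4117 UMIs per cell. In the 100 cells of cluster 1 from the SCD-labelled library, H2-K1 was 2654 CPM against 1099 in the 3672 cells from the wild-type-labelled library, Tap1 98.1 against 34.9 on 17 and 296 UMIs, Tap2 57.7 against 41.1 on 10 and 349 UMIs (log2 ratio 0.49, interval -0.58 to 1.39, so not 2-fold there), and Psmb9 179 against 58.7 on 31 and 498 UMIs. With each cell thinned to 1000 UMIs (leaving out 691 and 136 shallower cells), H2-K1 was found in 62.9% of RPM-like cells of the wild-type-labelled library and 88.0% of those in the SCD-labelled library, Tap1 in 3.67% and 12.2%, and Nlrc5 in 0.681% and 5.02%. Unthinned, the shares were 84.1% and 97.8% for H2-K1, 11.9% and 38.5% for Tap1, and 3.435% and 17.2% for Nlrc5. The same thinned shares in erythroid-like cells, the class with the lowest level, were 30.6% and 43.4% for H2-K1, 1.60% and 2.96% for Tap1, and 0.254% and 0.329% for Nlrc5, at median depths of 5994.5 and 5110 UMIs per cell (unthinned, 75.4% and 83.9% for H2-K1).

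**Figure D2:**
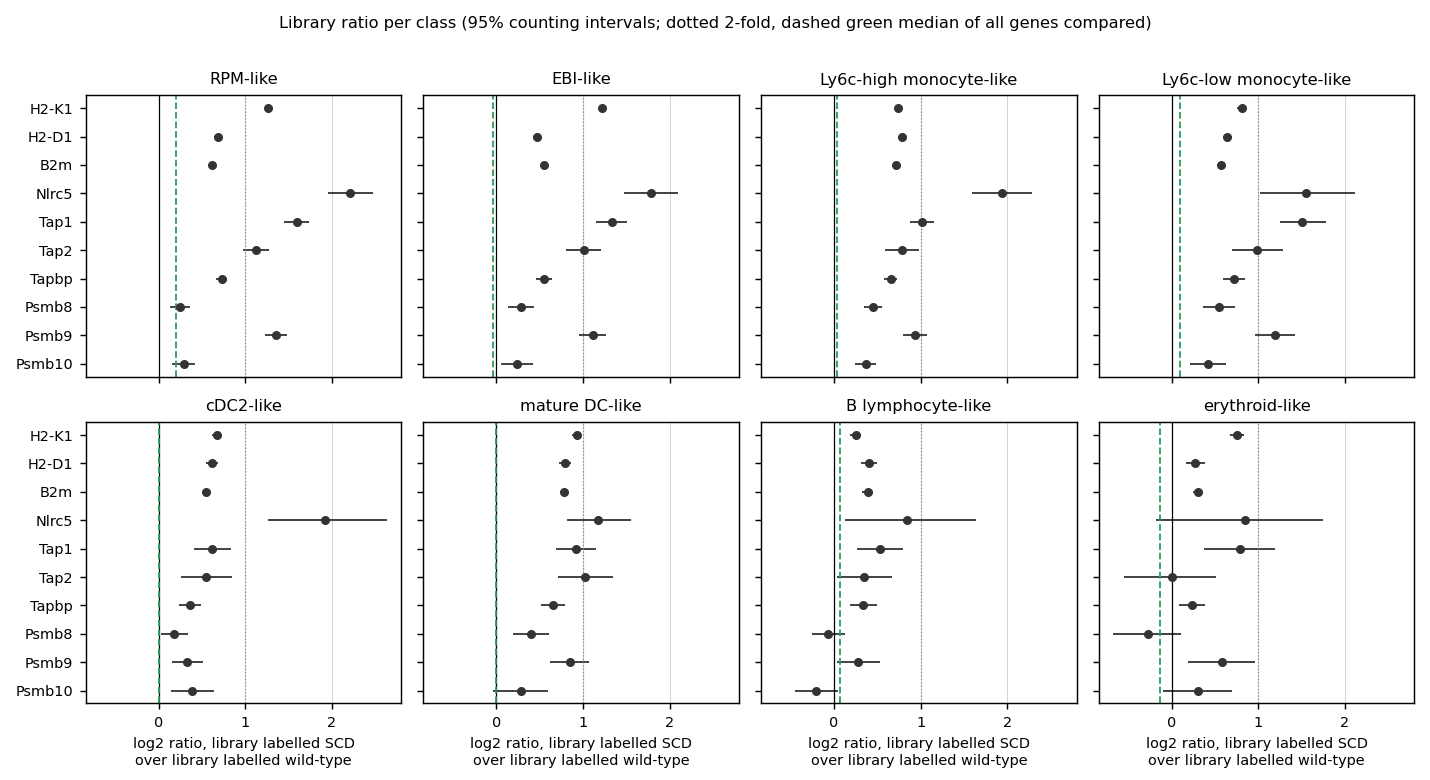
Log2 ratio of the level in the SCD-labelled library over the wild-type-labelled library for each gene and cell class, with bars for the exact 95% counting interval, a solid line at 0, a dotted line at 2-fold and a dashed green line at the median of all genes compared. In RPM-like cells the ratios run from 0.24 for Psmb8 to 2.21 for Nlrc5, and in B lymphocyte-like cells from -0.20 for Psmb10 to 0.84 for Nlrc5.

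EBI-like cells had the same 5 genes past 2-fold as RPM-like cells, H2-K1 (903 and 2102 CPM), Tap1 (37.9 and 95.3), Tap2 (36.0 and 72.4), Psmb9 (53.9 and 117) and Nlrc5 (9.71 and 33.6), against 4.11% of all genes. The median log2 ratio was 0.78 for the class I genes and -0.04 for all genes. The EBI-like cells of the wild-type-labelled library lay almost all in clusters 6, 8, 11, 13 and 14 (1289, 1122, 1029, 883 and 775 cells) and 611 of the 813 in the SCD-labelled library in cluster 16, which held 18 cells of the wild-type-labelled library, so that cluster and library cannot be told apart for most of these cells either. In mature DC-like cells 2 of 10 passed 2-fold (2.39% of all genes), Tap2 (58.7 and 119 CPM) and Nlrc5 (44.8 and 101 CPM), while H2-K1 was 2350 and 4465 CPM. With the C1q share of 40.3% and 15.45% subtracted there, the log2 ratios of Tap2 and Nlrc5 were 0.86 and 0.71, both under 2-fold. In Ly6c-low monocyte-like cells 3 of 10 did so (2.5% of all genes), namely Tap1 (61.5 and 175 CPM), Psmb9 (81.8 and 187) and Nlrc5 (15.04 and 43.89). Ly6c-high monocyte-like cells had 2 of 10 (2.44%), Tap1 (81.5 and 165 CPM) and Nlrc5 (11.7 and 44.8), and with the C1q share subtracted the log2 ratio of Tap1 was 0.85, under 2-fold. In cDC2-like cells 1 of 10, Nlrc5 (9.12 and 34.5 CPM), was past 2-fold, against 0.707% of all genes. As measured, Nlrc5 was past 2-fold in 6 of the 8 classes and Tap1 in 4, whereas H2-D1, B2m, Tapbp, Psmb8 and Psmb10 were past it in none.

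In B lymphocyte-like cells none of the 10 genes was 2-fold apart, against 2.44% of 7817 genes apart in either direction and 1.2% higher. H2-K1 was 1643 and 1958 CPM (log2 ratio 0.25, interval 0.19 to 0.32), H2-D1 773 and 1024 CPM (0.41), and B2m 1784 and 2335 CPM (0.39). Psmb8 was 203 and 194 CPM (-0.07, interval -0.25 to 0.13) and Psmb10 119 and 103 CPM (-0.20, interval -0.45 to 0.05), so that neither could be told from equal at this depth. The median was 0.34 for the class I genes and 0.07 for all genes. Whether the RPM-like and B lymphocyte-like ratios differ was not tested.

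Erythroid-like cells also had none of the 10 at least 2-fold apart, against 7.31% of 9310 genes apart and 1.31% higher. H2-K1 was 391 and 660 CPM (log2 ratio 0.76, interval 0.67 to 0.84), Tap1 17.1 and 29.6 CPM (0.80, on 346 and 59 UMIs) and Psmb9 22.04 and 33.11 CPM (0.59). Tap2 was level at 17.1 CPM in both (0.00, interval -0.55 to 0.51), and Psmb8 was 36.3 and 30.1 CPM (-0.27, interval -0.68 to 0.11). The median was 0.31 for the class I genes and -0.13 for all genes. The C1q genes, the guide to macrophage RNA, were lower in erythroid-like cells of the SCD-labelled library (922 against 1855 CPM), while the RPM-like level of each class I gene, of which that RNA carries a share, was higher. Their part in these ratios was not tested. With all variable genes used for clustering, 6 of the 10 were 2-fold apart. The erythroid-like class then held 2448 and 404 cells, with the C1q genes at 22.6% and 21.2% of the RPM-like level. With the macrophage share subtracted 3 were counted as 2-fold apart: H2-K1 (1.11), Psmb10 (1.496) and Nlrc5. The Nlrc5 remainder in the SCD-labelled library was below 0, which leaves it with no ratio. The share over all genes was not computed under either alternative.

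Inside single clusters most ratios were also above 1. Of 20 clusters with at least 50 cells in each library, H2-K1 was higher in the SCD-labelled library in 20, H2-D1 and Tap1 in 20, B2m, Tapbp and Psmb9 in 19, Tap2 in 18, Psmb8 in 16 and Psmb10 in 15. Nlrc5 had UMIs on both sides in 19 of these clusters and was 2-fold higher in 15. Of the 15, clusters 0, 2, 5, 12, 18 and 22 had at least 100 Nlrc5 UMIs, the limit set on all genes below. The rest had fewer, for example 4 and 46 in the SCD- and wild-type-labelled library in cluster 1, 8 and 45 in cluster 7 and 4 and 19 in cluster 9. The intervals of clusters 7 and 9 held 0. Psmb8 was the only one of the 10 with an interval below 0 in any of these clusters, in 2 of them. Over all 121940 pairs of a gene with at least 100 UMIs and one of these clusters, 51.9% had a ratio above 1, 18.2% an interval above 0, 17% an interval below 0, and 2.86% were at least 2-fold higher. In 3 of the 20, clusters 22, 26 and 27, most cells were scored as doublets (85.5%, 88.7% and 84.6%).

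The immunoproteasome subunits replace Psmb5 (by Psmb8), Psmb6 (by Psmb9) and Psmb7 (by Psmb10) when new proteasomes are built. The share of UMIs that the induced gene held in its pair was followed across classes and libraries. Since genes of a pair may be captured unequally, a share is not the share of the proteins. In the wild-type-labelled library Psmb9 held 51.2% of its pair in RPM-like, 56.4% in B lymphocyte-like, 69.3% in mature DC-like and 25.04% in erythroid-like cells. In the SCD-labelled library it held 79.1% (interval 76.9 to 81.2), 67.6%, 84.0% and 45.5% (37.2 to 54.0, on 145 UMIs). The Psmb8 share went from 68.8% to 76.0% in RPM-like, from 38.2% to 50.4% in erythroid-like, and from 75.5% to 75.7% in B lymphocyte-like cells. The Psmb10 share was 57.4% and 67.8% in RPM-like, 22.1% and 31.1% in erythroid-like, and 66.0% and 61.3% in B lymphocyte-like cells, the one share that was lower over these 3 pairs and 8 classes. In RPM-like cells both sides of the Psmb9 pair moved, since Psmb6 was 55.0 and 39.1 CPM. The shares in erythroid-like cells include macrophage RNA, with the C1q genes at 25.9% and 13.9% of the RPM-like level. Psmb8 there was 36.3 and 30.1 CPM as measured, and 11.7 and 14.6 CPM with that share subtracted and the rest rescaled. The pair shares were not recomputed after the subtraction.

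**Figure D3:**
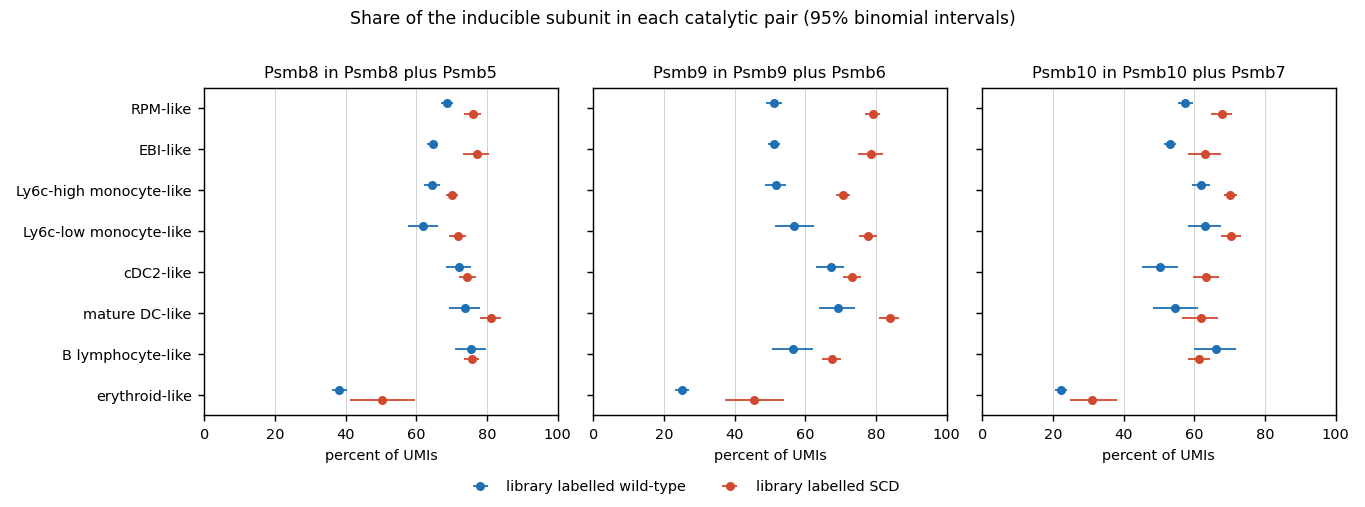
Percent of UMIs held by the induced subunit in each of the 3 catalytic pairs, by cell class in the wild-type-labelled (blue) and SCD-labelled (red) library, with exact binomial 95% intervals. Erythroid-like cells have the lowest share of all 3 pairs in both libraries, and the Psmb9 share in RPM-like cells goes from 51.2% to 79.1%.

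Against RPM-like cells of their own library, erythroid-like cells had 9 of 10 genes at least 2-fold lower in the wild-type-labelled library, where 32.6% of all genes were, and 10 of 10 in the SCD-labelled library, where 43.4% were. Tapbp was the exception, at 170 against 255 CPM (log2 ratio -0.58), and in the SCD-labelled library it was 201 against 422 CPM (-1.07). The other log2 ratios ran from -1.30 (Tap1) to -1.65 (Nlrc5) in the wild-type-labelled library and from -1.56 (Psmb10) to -3.02 (Nlrc5) in the SCD-labelled library. With a minimum of 200 genes per cell in place of the filter used, which brought in cells with more macrophage RNA (C1q genes at 39.2% of the RPM-like level), 1 of 10 was 2-fold lower in the wild-type-labelled library. Medians were -1.38 for the class I genes and -0.34 for all genes in the first, and -1.98 and -0.72 in the second.

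Erythroid maturation was followed with a score per cell, the mean level of 10 late genes such as Slc4a1 and Alas2 minus that of 7 early genes such as Kit and Myc, none of them a class I gene. The erythroid-like cells of both libraries were divided at the same 2 values into early, middle and late cells, 936, 949 and 879 in the wild-type-labelled library and 87, 74 and 144 in the SCD-labelled library. They are ranges of a score and not cell types, and 493 of 3069 cells lay within 0.1 SD of a boundary. Median depth fell along them, from 9908 to 6446 and 2943 UMIs and from 10041 to 5968.5 and 3035.5 UMIs. The share of macrophage RNA did not fall with it: the C1q genes stood at 19.6%, 32.7% and 30.04% of the RPM-like level in the wild-type-labelled library and at 11.3%, 18.1% and 14.2% in the SCD-labelled library. The median C1q UMIs per cell were 8, 10 and 5 in the first, and 3, 4 and 2 in the second. Cells scored as doublets made up 14.1%, 16.97% and 3.19% of early, middle and late cells in the first, and 19.5%, 16.2% and 0% in the second.

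In the wild-type-labelled library none of the 10 genes was 2-fold lower in late than in early cells, whereas 37.7% of 8288 genes were. H2-K1 was 349 CPM in early, 433 in middle and 423 in late cells, a late-over-early log2 ratio of 0.28 (interval 0.19 to 0.37). B2m was 924, 1167 and 947 CPM (0.04), and H2-D1 was 288, 391 and 329 CPM (0.19). The transporter and tapasin genes were lower in late cells. Tap1 was 17.1, 20.2 and 10.0 CPM on 169, 145 and 32 UMIs (-0.77, interval -1.36 to -0.22), Tap2 18.5, 17.4 and 11.9 CPM (-0.64), and Tapbp 164, 200 and 122 CPM (-0.43). For the immunoproteasome genes and Nlrc5 the late-over-early intervals held 0. The median was 0.05 for the class I genes and -0.70 for all genes.

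These levels can be set beside what macrophage RNA alone would bring. In late cells of the wild-type-labelled library, 30.04% of the RPM-like level came to 304 CPM for H2-K1, of the 423 measured, and to 774 CPM for B2m, of 947 measured. For Tap1 it came to 12.6 CPM, above the 10.0 measured, and for Tap2 to 13.3 CPM, above the 11.9 measured. In early cells the same reckoning gave 198 of 349 CPM for H2-K1 and 505 of 924 CPM for B2m. For H2-K1, 151, 102 and 119 CPM remained in early, middle and late cells, and for Tap1 8.85, 6.53 and -2.56 CPM. With that share subtracted and the rest rescaled, an alternative chosen after seeing the data, 7 of the 10 genes were counted as 2-fold lower in late than in early cells of this library. For 4 of them (B2m, Tapbp, Psmb9 and Psmb10) the log2 ratio ran from -1.08 to -1.18, and for the other 3 (Tap1, Tap2 and Nlrc5) the late remainder was below 0 and gives no fold. The percent of all genes 2-fold lower was not computed after this subtraction.

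In the SCD-labelled library, 4 of 10 genes were at least 2-fold lower in late than in early cells, where 46.6% of the 2414 genes with at least 100 UMIs were. They were Psmb8 (31.6, 51.0 and 7.48 CPM on 30, 26 and 4 UMIs), Psmb9 (48.5, 23.5 and 14.96 CPM on 46, 12 and 8 UMIs), Psmb10 (30.6, 47.1 and 14.96 CPM on 29, 24 and 8 UMIs) and Nlrc5 (5, 6 and 1 UMIs). Each had fewer than 100 UMIs over the early and late cells, the intervals of Psmb10 and Nlrc5 held 0, and of the 4 genes with at least 100 UMIs (H2-K1, H2-D1, B2m and Tapbp) none was 2-fold lower. H2-K1 was 594, 916 and 533 CPM (log2 ratio -0.16, interval -0.37 to 0.05) and B2m was 1215, 1655 and 944 CPM (-0.36, interval -0.52 to -0.21). The middle cells had the highest level of H2-K1, H2-D1, B2m and Tapbp in both libraries, and also the highest C1q share. Less that share, early, middle and late cells of the wild-type-labelled library kept 119, 108.5 and 69.35 CPM of H2-D1 and 418, 325.5 and 172 CPM of B2m, so that the middle cells were not the highest there for these genes, nor for H2-K1. They stayed the highest in the SCD-labelled library, for example at 769, 942 and 384 CPM for B2m. The median was -0.65 for the class I genes and -0.90 for all genes.

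**Figure D4:**
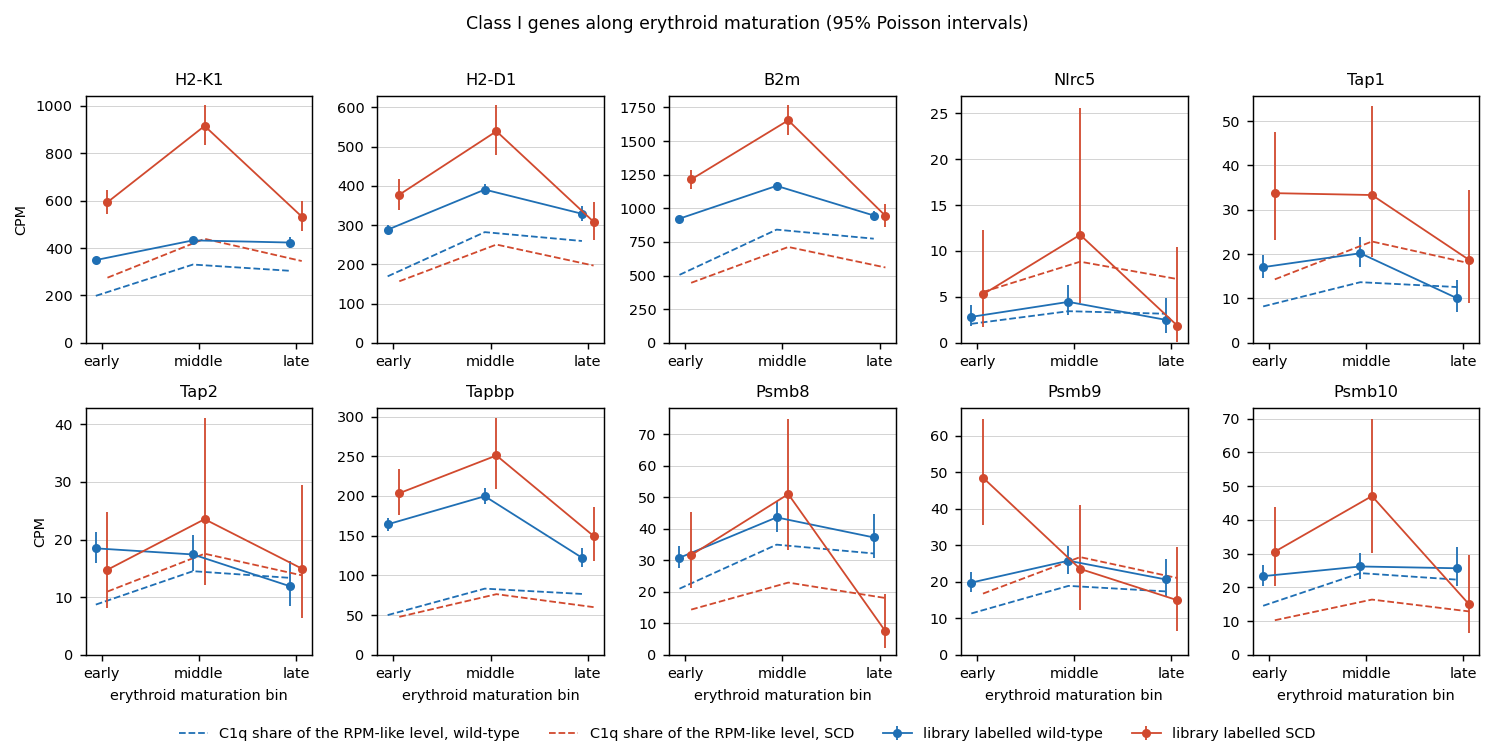
Level of each class I gene (CPM) in early, middle and late erythroid-like cells of the wild-type-labelled (blue) and SCD-labelled (red) library, with exact Poisson 95% intervals. Dashed lines give the level that macrophage RNA alone would bring at the C1q share, which for H2-K1 in late cells of the wild-type-labelled library is 304 of 423 CPM.

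Set by maturation, the gap between the libraries was 594 against 349 CPM for H2-K1 in early cells (log2 ratio 0.77), 916 against 433 in middle cells (1.08) and 533 against 423 in late cells (0.33). B2m was 1215 against 924 CPM in early cells (0.40) and 944 against 947 CPM in late cells (-0.00, interval -0.14 to 0.13). Psmb9 was 48.5 against 19.8 CPM in early cells (1.29, on 46 and 196 UMIs) and 14.96 against 20.65 CPM in late cells (-0.47, on 8 and 66 UMIs). The median over all genes also fell, from -0.01 in early to -0.12 in middle and -0.42 in late cells. That of the class I genes was 0.39, 0.48 and -0.05. With the C1q share subtracted, the log2 ratio was 0.94 in early and 0.36 in late cells for H2-K1, and 0.74 and 0.86 for B2m. Whether the gap changes along maturation was not tested.

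Of the other 58 genes listed with the pathway, the partners of peptide loading showed none of 8 at least 2-fold apart in RPM-like cells, with a median log2 ratio of 0.24, and the proteasome activator genes Psme1 and Psme2 none of 2. The replaced subunits Psmb5, Psmb6 and Psmb7 had a median of -0.35. Among the other class I heavy chains 4 of 9 were at least 2-fold higher and 1 lower. Over all genes 9.01% were higher and 13.3% apart in either direction. H2-Q7 was 5.01 and 26.5 CPM, H2-Q4 4.55 and 20.02 CPM, Cd1d1, which presents lipids, 59.8 and 151 CPM, and H2-M3, which presents formylated peptides, 54.1 and 130 CPM. H2-T24 was the one lower, 55.8 and 18.0 CPM. All 7 class II presentation genes were at least 2-fold higher, among them their transactivator Ciita at 11.1 and 80.4 CPM and H2-Aa at 260 and 1801 CPM. The same list had 7 genes higher in EBI-like and Ly6c-low monocyte-like, 6 in Ly6c-high monocyte-like and 4 in erythroid-like cells. It had 0 in B lymphocyte-like, cDC2-like and mature DC-like cells. In the same RPM-like cells the 8 B lymphocyte markers summed to 110 and 207 CPM and Igkc, an antibody light chain gene, was 14.6 and 93 CPM, and their part in the class II levels was not tested. In B lymphocyte-like cells no gene of the lists with at least 100 UMIs was 2-fold higher, and 1 interferon-stimulated gene was 2-fold lower.

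Among the transcription factors of the lists, Irf7, Irf1 and Rfx5 were at least 2-fold higher in RPM-like cells of the SCD-labelled library. Irf7, a driver of type I interferon genes, was 12.2 and 34.5 CPM, Irf1, which binds interferon response elements, 86.3 and 211 CPM, and Rfx5, part of the complex through which NLRC5 acts, 16.4 and 35.6 CPM. Of the interferon-stimulated genes 7 of 13 were at least 2-fold higher, against 9.01% of all genes, and 1 was lower. Cxcl10, a chemokine, was 5.70 and 50.5 CPM and Iigp1, a GTPase, 48.4 and 282 CPM, while Rsad2, an antiviral enzyme, was 121 and 48.3 CPM and Isg15, a ubiquitin-like modifier, 25.9 and 13.2 CPM (log2 ratio -0.98). The erythroid markers, 12 of 12 with UMIs in both libraries, summed to 697 and 177 CPM in RPM-like cells, and their part in the Rsad2 and Isg15 levels was not tested.

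Rsad2 and Isg15, lower in RPM-like cells of the SCD-labelled library, were at high levels in late erythroid-like cells of both libraries. Along maturation in the wild-type-labelled library, Rsad2 was 250 CPM in early, 1144 in middle and 6158 in late cells, and Isg15 133, 507 and 1506 CPM, in each case well above the 36.3 and 7.78 CPM that macrophage RNA would bring to late cells. Of the class I heavy chains outside the 10, H2-T23 was 59.9, 106 and 207 CPM and H2-T24 23.7, 51.3 and 84.8 CPM. In the SCD-labelled library, Rsad2 was 332, 726 and 4987 CPM, H2-T23 61.2, 161 and 204 CPM and H2-T24 19.0, 56.9 and 110 CPM. In the same cells Tap1 and Tapbp were lower in late than in early cells in both libraries, though the Tap1 interval held 0 in the SCD-labelled library.

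Over the 16 combinations of class and library, each class I gene was compared with the mean log2 level of the other 9. Pearson's r was highest for Tapbp (0.9702), Psmb9 (0.965) and Tap1 (0.961) and lowest for Psmb10 (0.793), Psmb8 (0.871) and Nlrc5 (0.880). Among 9922 other genes, those most like the mean of all 10 were Lrch3 (0.963), Gm42432 (0.960), Gm44667 (0.955), Pogk (0.954) and Tmx3 (0.953). The points share libraries, free RNA and the erythroid-like minimum, so these values are descriptions.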

How the data were processed

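Spleen cells bound by anti-F4/80 beads were profiled with 10x Genomics 3' v3.1 chemistry, 1 library per mouse. The authors deposited filtered count matrices, whole-number UMI counts per gene and barcode that were not normalized. Their notes name Cell Ranger 4.0.0, R 4.4, Seurat 3.2.3, Scanpy 1.6.0 and build GRCm38.p6, and the matrix headers name version 3.1.0.

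Kept here were barcodes on which 500 to 5000 genes were found and whose UMIs were under 15% mitochondrial and 30% ribosomal. Counts were normalized with scran 1.30.0 (R 4.3.3) for clustering in scanpy 1.11.5 (Python 3.11.15, numpy 2.4.6, scikit-learn 1.9.0, python-igraph 0.11.9) with 2000 variable genes without the members, pathway genes, hemoglobin and sex-linked genes, 30 principal components, 15 neighbours and Leiden resolution 1. Clusters were named from at least 3 detected markers. Macrophage and erythroid markers were set against a B lymphocyte-like cluster, and markers of other classes had to be at least 3-fold over the rest of the cells. These limits were set after a first clustering was seen. Class names are therefore rebuilt, not the authors'. Scrublet marked 0 cells in the wild-type-labelled library, where the 2046 highest scores were taken instead, and 1712 in the SCD-labelled library. Marked cells stayed in, except under an alternative, but clusters with over 50% of them stayed unnamed.

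UMIs were summed per class and library and given as CPM with exact Poisson intervals, ratios with exact conditional binomial intervals and shares with exact binomial (Clopper-Pearson) intervals. A gene was called at a 2-fold ratio, and the background was every gene with at least 100 UMIs in the cells compared. With 1 library per group no p-value was computed. The levels brought by macrophage RNA were the RPM-like level times the share of the 3 C1q genes. The summing and interval steps were tested on simulated data. The members and lists were chosen with earlier results of these data known. Named beside the 10 members are up to 4 genes per list with the largest ratio, the 5 genes most like the members, globin and marker genes, and, chosen after their values were seen, Isg15, Psmb5 to Psmb7, H2-T23, H2-T24 and H2-Aa. Alternatives changed the cell filters, doublets, clustering, library totals, weights, normalization, bins and score. One listed transcription factor, and the count over its list, is not reported here.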

Additional observations from a re-analysis of the deposited data

Results flagged for a closer look

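Psmb8 differed in direction between late erythroid-like cells, a range of the maturation score, and RPM-like cells. In the erythroid-like class as a whole its log2 ratio was -0.27, with an interval of -0.68 to 0.11 that held 0. In late erythroid-like cells it was 7.48 CPM in the SCD-labelled library and 37.2 CPM in the wild-type-labelled library, on 4 and 119 UMIs, a log2 ratio of -2.32 (interval -4.22 to -0.92). In RPM-like cells the log2 ratio was 0.24, in the opposite direction. Each side is 1 library, and the difference between late erythroid-like and RPM-like cells was not tested. The C1q genes stood at 14.2% and 30.04% of the RPM-like level in these late cells. At that share macrophage RNA would bring 18.0 and 32.1 CPM of Psmb8.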

How the results depend on the processing

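Counts of class I genes past 2-fold were recomputed under 11 to 13 alternatives each. The share over all genes was computed for the main setting only. Between the libraries, 4 to 5 were 2-fold apart in RPM-like cells (11 alternatives) and 0 in B lymphocyte-like cells (12). In erythroid-like cells the count of 0 became 1 with at least 200 genes per cell, 1 without the ribosomal limit, 1 at Leiden resolution 2, 6 with all variable genes, 4 with libraries clustered separately, 2 with scran means and 3 with macrophage RNA subtracted (1 of them, Nlrc5, with a remainder below 0 and so no fold). Erythroid-like below RPM-like, 9 in the wild-type-labelled library, became 1 with at least 200 genes and 4 at resolution 0.5. In the SCD-labelled library, 10 became 5 with separate clustering and 6 with scran means. Late below early, 0 in the wild-type-labelled library, became 2 with at least 200 genes, 1 with 5 bins and 7 with macrophage RNA subtracted (3 of them with remainders below 0). In the SCD-labelled library, 4 became 1 without doublets, 2 at resolution 0.5, 1 with all variable genes and 1 with scran means. There Psmb10 turned to log2 ratios of 0.030 without doublets and 0.43 with scran means, Nlrc5 to 1.23 at resolution 0.5, and Psmb8 to 0.075 and Psmb9 to 0.43 with scran means. The causes were not tested. Subtracting macrophage RNA and centring were chosen after seeing the data. No paired analysis was possible because each group is 1 library.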
